A study of Rattus norvegicus with 288 samples.

Results

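Temsirolimus, an inhibitor of the protein kinase mTOR, was compared with its vehicle in the livers of rats killed 24 h after dosing. The livers were chosen by their labels as those taken at 24 h, and 30 of the 288 arrays entered the comparison: 15 from rats given temsirolimus as the first agent and 15 from rats given its vehicle, written TEM_vehicle. All were male Sprague-Dawley rats 7 to 8 weeks old that were fed ad libitum and housed singly. Treated rats received 0.3 mg/kg temsirolimus as a single intravenous dose, and 30 min later every rat received a second agent by mouth. This second agent was an inhibitor of receptor tyrosine kinases (sunitinib, 5 mg/kg, or sorafenib, 25 mg/kg) or 1 of their vehicles, sterile water or F68/PG/PEG400. The 8 groups held 4 rats each, and 2 arrays were left out, so that the group given temsirolimus with F68/PG/PEG400 and the group given TEM_vehicle with sunitinib kept 3 rats. The series also holds heart and bone marrow of the same rats and earlier times. Each array was an Affymetrix rat genome array of 1 tissue of 1 rat, and the deposited values are signals on the log2 scale.

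mTOR senses amino acids, insulin and growth factors, and in its rapamycin-sensitive complex it drives protein synthesis, nucleotide and lipid synthesis and cell growth. Temsirolimus is an ester of rapamycin that binds FKBP12, the product of Fkbp1a, and the pair then blocks this complex. In the liver, the complex is known for its control of translation, of lipogenic genes under SREBP and of amino acid synthesis genes under ATF4. Hepatocytes export most plasma proteins, so their endoplasmic reticulum (ER) carries a heavy load of folding.

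The left-out arrays differed from the others in measures of array quality that do not use the treatment groups. They were left out with earlier results of these data known. The array of rat 4M48 had an Actb 3′ to 5′ signal ratio of 9.59 and a Gapdh ratio of 5.51, where the 30 kept arrays ran from 1.69 to 2.21 and from 1.26 to 1.49, a measure of how intact the RNA was. In rat 7M78 the interquartile range of the log2 signals was 2.13, and the kept arrays had 2.77 to 3.23, the lowest of these being rat 8M96. The tissue label held in the kept arrays. Mean log2 signal over 14 hepatocyte markers had a median of 14.11 in treated and 14.17 in control rats, and the 10 cardiac muscle markers had 5.44 to 6.09 and 5.48 to 5.65. The value of 6.09 belonged to rat 4M42, whose heart had the highest hepatocyte markers of the 30 hearts (11.25). Of 11 marker lists, erythroid, macrophage, cholangiocyte, neutrophil, T and NK cell, B cell and cardiac muscle genes had no member called. In whole tissue, fewer cells of a type and less RNA per cell cannot be told apart.

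Temsirolimus changed 1570 of 14217 genes (11% of those tested), of which 523 rose (3.68%) and 1047 fell (7.36%). A gene was called when its p from limma, adjusted by the Benjamini-Hochberg method over all genes, was under 0.05 in a fit with terms for the second agent and for the array set, the array plates on which a rat was run. Most calls were small: 1196 had a change under 0.3 on the log2 scale in either direction and 15 had one of at least 1, while the median change of all genes was 0.00. The balance of directions moved with the scaling, since renewed quantile normalization gave 1783 calls with 785 rises and 998 falls, of which 1454 were among the first 1570. The array of rat 7M78 decided the number of calls. With it the count was 378 (173 rose and 205 fell, all 378 among the 1570), with the array of rat 4M48 it was 1538, and with both it was 445 (218 rose and 227 fell, 444 of them shared), or 2375 when limma's array weights were used.

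Every treated rat lay below every control for 20 genes (0.141% of the genes tested) and above every control for 4 genes (0.0281%). The members of these sets were named after their values were seen. Nme1, a nucleoside diphosphate kinase, had a log2 signal of 9.24 to 9.70 (median 9.46) in treated rats and of 10.08 to 10.43 (median 10.38) in controls. Its change was -0.86 ± 0.05 (log2, standard error, n = 15 and 15, adjusted p = 2.65e-13 from limma), and its near-identical neighbour Nme2 had -0.44 ± 0.04, so the probes of the pair may share transcripts. Tmem97, a membrane protein of sterol transport, changed by -0.75 ± 0.06, Ppa1, an inorganic pyrophosphatase, by -0.51 ± 0.04, and Otub2, a deubiquitinase, by -0.93 ± 0.10. Tmx2 (-0.59 ± 0.05), a thioredoxin-like protein of the ER membrane, and Slc35b4 (-0.49 ± 0.05), a nucleotide sugar transporter, were on the same side. Also below were Sdf2l1, Psph, Erp29, Nupr1, Dnajb11, P4hb, Calr, Psmd14 and Mrps27, which belong to the lists described next, and Cptp, Wrap73, Wdr83os and Idh3g. Above all controls were Nop53, Eif4b, Nsa2 and LOC102549726.

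**Figure D1:**
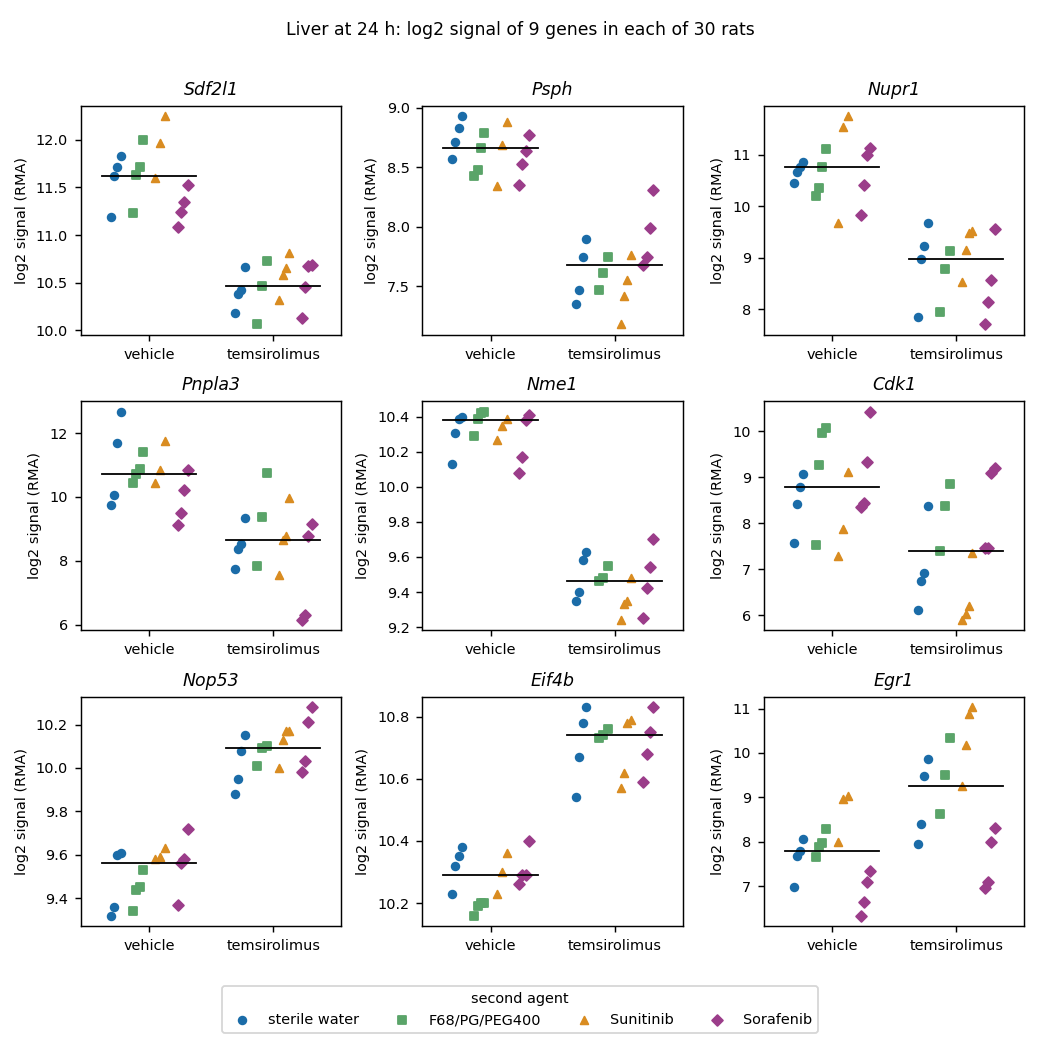
Log2 signal (vertical axes, RMA) of 9 genes in the liver at 24 h, with 1 point for each of the 30 rats, the colour and shape giving the second agent and the line the median of 15 rats. The groups do not overlap for Sdf2l1, Psph, Nupr1, Nme1, Nop53 and Eif4b, and they overlap for Pnpla3, Cdk1 and Egr1.

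In the 30 arrays, genes that fold proteins in the ER formed the list with the highest share of falls (75%, next to 69.7% in cell division). Of 32 measured members, 24 fell, 0 rose and 8 were not called, the median change was -0.33 against 0.00 for all genes, and 30 of the 32 changes were below 0. With both left-out arrays included 15 of the 32 fell, a lower share than that of cell division, where 22 of 33 fell. The mean log2 signal over the 32 genes ran from 10.58 to 10.85 in treated rats (median 10.69) and from 10.73 to 11.23 in controls (median 11.02). The ranges overlapped between 10.73 and 10.85. The fall covered chaperones, their cofactors and disulfide isomerases alike. As background, many such genes are induced when XBP1 or ATF6 binds an ER stress element in the promoter, which reads CCAAT, 9 free bases and CCACG.

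Of the 24 members that fell, 21 had a promoter in the RefSeq table (GRCr8, 250 bases before to 50 after the start), and 7 of these 21 (33.3%) held the element on either strand, against 22 of 33469 promoters in all (0.0657%). The 7 were Creld2, Hsp90b1, Calr, Ero1b, Dnajc3, Hspa5 and Canx, and Hsp90b1 held it at 2 places. The core of the C/EBP-ATF element, searched as TGATG, any base, AA and any base on both strands, was found in 0 of the 21 and in 1328 of all promoters (3.97%). A match is a run of letters and no measured site, and its absence says only that the letters are not in the window. The list holds genes known to be induced through the ER stress element, and its members that were not called were not searched. The share of 33.3% therefore does not tell whether the element goes with a fall. The 5 promoters printed are those of the members with the largest falls that hold the element. They are given 5′ to 3′ on the strand of the gene, with the fixed letters of each match in capitals, read as CGTGG and ATTGG where the element lies on the other strand. They lie at chr7:121789134-121789433 (Creld2, plus strand), chr7:23012244-23012543 (Hsp90b1, minus strand), chr19:40213117-40213416 (Calr, plus strand), chr17:92941432-92941731 (Ero1b, plus strand) and chr15:102432417-102432716 (Dnajc3, plus strand) of GRCr8.
Creld2: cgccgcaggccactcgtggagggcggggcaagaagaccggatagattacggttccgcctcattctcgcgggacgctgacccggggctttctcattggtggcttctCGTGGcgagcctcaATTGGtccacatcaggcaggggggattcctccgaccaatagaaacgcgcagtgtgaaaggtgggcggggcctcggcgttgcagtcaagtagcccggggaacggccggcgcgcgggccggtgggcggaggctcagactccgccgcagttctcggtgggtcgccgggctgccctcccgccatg
Hsp90b1: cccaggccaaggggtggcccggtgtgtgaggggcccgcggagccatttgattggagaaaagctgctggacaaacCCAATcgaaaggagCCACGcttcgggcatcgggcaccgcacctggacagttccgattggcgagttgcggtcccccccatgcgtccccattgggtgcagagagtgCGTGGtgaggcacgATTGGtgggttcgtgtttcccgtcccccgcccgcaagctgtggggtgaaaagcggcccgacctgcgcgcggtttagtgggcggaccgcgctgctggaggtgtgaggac
Calr: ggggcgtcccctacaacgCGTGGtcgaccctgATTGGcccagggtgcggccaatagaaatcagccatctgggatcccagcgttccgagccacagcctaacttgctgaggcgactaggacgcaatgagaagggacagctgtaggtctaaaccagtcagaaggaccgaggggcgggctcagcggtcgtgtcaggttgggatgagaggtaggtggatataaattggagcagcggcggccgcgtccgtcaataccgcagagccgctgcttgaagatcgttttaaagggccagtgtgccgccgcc
Ero1b: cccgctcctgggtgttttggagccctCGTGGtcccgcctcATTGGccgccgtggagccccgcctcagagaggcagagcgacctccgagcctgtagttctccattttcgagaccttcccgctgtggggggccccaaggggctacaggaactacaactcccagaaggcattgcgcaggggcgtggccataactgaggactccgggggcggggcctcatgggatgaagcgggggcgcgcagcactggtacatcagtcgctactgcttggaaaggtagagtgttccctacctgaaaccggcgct
Dnajc3: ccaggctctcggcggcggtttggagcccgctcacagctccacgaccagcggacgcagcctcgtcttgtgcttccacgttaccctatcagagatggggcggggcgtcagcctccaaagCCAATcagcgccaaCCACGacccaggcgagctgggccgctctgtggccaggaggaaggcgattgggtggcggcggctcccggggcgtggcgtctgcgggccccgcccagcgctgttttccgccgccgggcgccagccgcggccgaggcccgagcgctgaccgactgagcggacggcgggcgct

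Sdf2l1, which sits in a chaperone complex of the ER lumen, had the largest fall of the list. Its log2 signal was 10.05 to 10.81 (median 10.46) in treated rats and 11.08 to 12.25 (median 11.62) in controls, a change of -1.13 ± 0.10 (adjusted p = 4.72e-09), with no overlap. Creld2, a disulfide isomerase partner whose promoter is shown above, had 9.91 to 10.81 (median 10.19) and 10.41 to 11.73 (median 11.19). It changed by -0.87 ± 0.09 (adjusted p = 2.23e-07), and 12 of 15 treated rats lay below all controls. Erp29, a chaperone of secretion, had 9.92 to 10.54 (median 10.24) and 10.56 to 11.11 (median 10.91). The groups of Erp29 did not overlap, and the change was -0.64 ± 0.06 (adjusted p = 1.45e-08). Hsp90b1, the HSP90 of the ER, fell from a median of 13.33 (12.93 to 13.53) to one of 12.80 (12.61 to 13.14), by -0.53 ± 0.05 (adjusted p = 4.44e-08). Dnajb11, a co-chaperone of BiP, fell from 10.82 (10.58 to 11.12) to 10.29 (10.11 to 10.54), by -0.52 ± 0.06 (adjusted p = 2.1e-07), again without overlap.

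The other falls of the list were between -0.12 and -0.65, and Hyou1 and Fkbp2 marked the ends. Hspa5, which encodes BiP, the main HSP70 of the ER, changed by -0.38 ± 0.05 and Calr, a lectin chaperone, by -0.51 ± 0.06. Hyou1, a further HSP70 relative, changed by -0.65 ± 0.12, and the lowest of all 30 rats was a control at 7.62. P4hb, the classical disulfide isomerase, changed by -0.23 ± 0.03, yet its groups did not overlap (13.46 to 13.62 and 13.67 to 13.94). Pdia5 and Ero1a, both of the disulfide-forming machinery, had 0.19 ± 0.10 and 0.04 ± 0.10 and were not called. Of 9 measured sensors and factors of the unfolded protein response, 2 rose (Creb3l3 by 0.16 ± 0.03 and Mbtps1 by 0.14 ± 0.04), 2 fell (Creb3 by -0.19 ± 0.04 and Eif2ak3 by -0.24 ± 0.07), and the median was 0.04. These counts were 1 and 0 with both left-out arrays included. Xbp1 had 0.23 ± 0.07 (adjusted p = 0.051) and Atf6 had 0.04 ± 0.06, neither called.

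**Figure D2:**
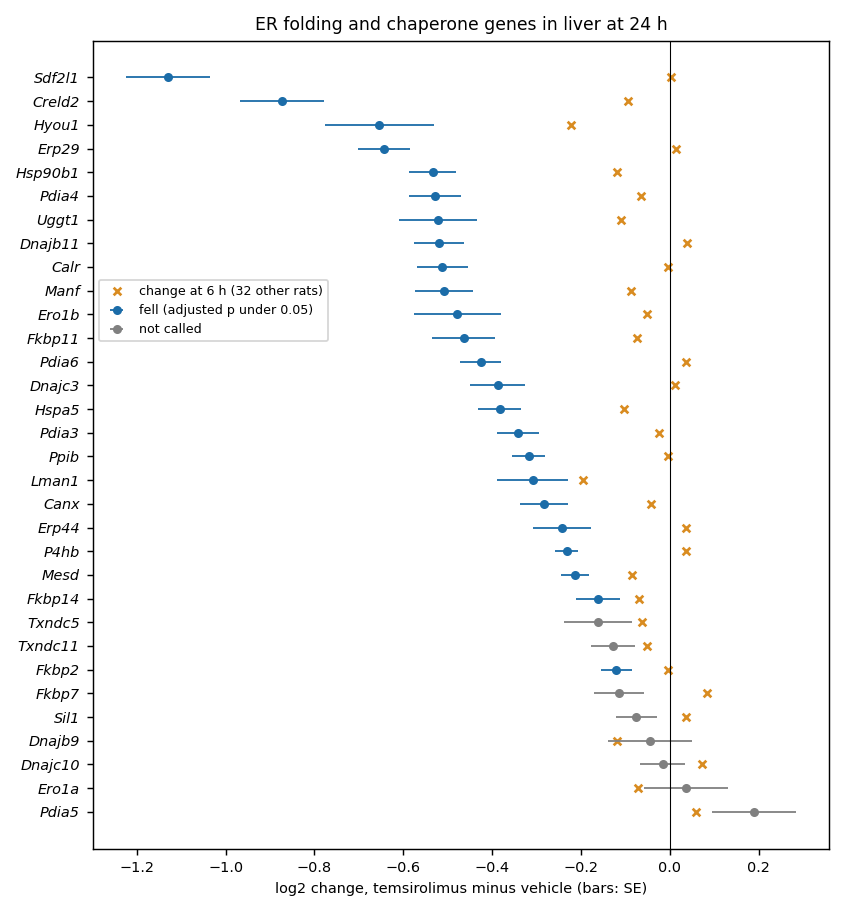
Log2 change (horizontal axis, temsirolimus minus vehicle) of the 32 measured ER folding genes in the liver at 24 h, points with standard errors from 30 rats, blue where the gene fell and grey where it was not called, and crosses for the change at 6 h in 32 other rats. At 24 h, 30 of the 32 points lie left of 0, and the crosses have a median of -0.05.

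Lists for the other steps of the secretory route had medians nearer to 0. In the list of ER translocation and signal peptidase, 19 of 31 measured members fell and 0 rose, with a median of -0.18. Ssr2, a subunit of the translocon-associated complex, had a log2 signal of 10.52 to 10.96 (median 10.69) in treated and 10.94 to 11.34 (median 11.18) in control rats. Its change was -0.46 ± 0.05 (adjusted p = 2.07e-07), and 14 of 15 treated rats lay below all controls. Ssr1 changed by -0.34 ± 0.04, Sec61a1, the channel itself, by -0.28 ± 0.05, and Rpn2, of the glycosylating transferase, by -0.23 ± 0.04. Of 28 measured genes of ER to Golgi vesicles, 13 fell and 1 rose (median -0.11). Tmed3, a cargo receptor, had the largest fall of these, with 8.26 to 9.18 (median 8.57) in treated rats against up to 10.27 (median 9.48) in controls, a change of -0.76 ± 0.13 (adjusted p = 0.00022) in groups that overlap, and Mcfd2 changed by -0.25 ± 0.04. ER-associated degradation had 7 falls and 1 rise among 19 (median -0.10), with Selenok at -0.30 ± 0.04 and Herpud1 at -0.32 ± 0.07. Including both left-out arrays, ER translocation had 2 falls, ER to Golgi vesicles 2 and ER-associated degradation 1. Among the cargo of this route, 0 of 26 measured secreted plasma proteins and 0 of 19 acute phase genes were called by limma, with medians of 0.01 and 0.04. Alb, the gene of albumin, had a change of 0.00 ± 0.02, though at 15.24 to 15.28 it lay near the top of the signal range, where an array can hide a change.

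Enzymes of serine and asparagine synthesis were among the genes with the largest falls. Of 12 measured genes of serine, one-carbon and asparagine synthesis, 8 fell and 0 rose (median -0.28), and all 12 changes were below 0. Phgdh, the first enzyme of serine synthesis, had 5.94 to 7.55 (median 6.46) in treated rats and 6.70 to 10.12 (median 8.67) in controls, a change of -1.89 ± 0.25 (adjusted p = 8.37e-06). Psat1, the next enzyme, had 6.71 to 8.07 (median 7.31) and 8.04 to 10.84 (median 9.02), a change of -1.83 ± 0.22 (adjusted p = 2.07e-06). Psph, the last enzyme, had 7.18 to 8.31 (median 7.68) and 8.34 to 8.93 (median 8.66), a change of -0.97 ± 0.08 (adjusted p = 5.45e-09). Only Psph of the 3 was free of overlap, with a change smaller than those of the others and a much narrower spread among controls. Asns, which makes asparagine, changed by -1.57 ± 0.27 (adjusted p = 0.0002), and its controls ranged from 6.99 to 10.31. Cbs, of the path from homocysteine to cysteine, changed by -0.45 ± 0.07 and Mthfd2, a mitochondrial folate enzyme, by -0.33 ± 0.08, whereas Shmt2 had -0.06 ± 0.05 and was not called. Of the 8 that fell, 7 had a promoter in the table, and 0 of these held either the ER stress element or the core of the C/EBP-ATF element.

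These genes are known targets of ATF4, a factor whose translation mTOR promotes. Atf4 itself had 11.51 to 12.33 (median 11.83) in treated and 11.62 to 12.22 (median 11.73) in control rats, and its change of 0.03 ± 0.07 was not called. Of 25 measured genes of the ATF4 and stress response, 7 fell and 0 rose (median -0.16). Nupr1, a small stress-induced nuclear protein, had 7.70 to 9.67 (median 8.98) in treated and 9.68 to 11.75 (median 10.76) in control rats, with no overlap, and its change of -1.94 ± 0.20 (adjusted p = 1.75e-07) was 0.26 on the linear scale. Ddit4, which encodes REDD1, an inhibitor of mTOR, changed by -1.19 ± 0.20 (6.79 to 8.44 against 7.95 to 10.40, adjusted p = 0.00013). Atf5, a relative of ATF4, changed by -0.65 ± 0.09, Ddit3, which encodes CHOP, by -0.36 ± 0.07, and Eif4ebp1, an mTOR substrate that restrains translation, by -0.38 ± 0.06. Trib3 (-0.27 ± 0.09), Fgf21 (-0.58 ± 0.25), Chac1 (-0.06 ± 0.07) and Slc7a11 (-0.11 ± 0.05), which are textbook ATF4 targets too, were not called. Of 19 measured aminoacyl-tRNA synthetases, 10 fell and 0 rose (median -0.17). Nars1, which loads asparagine, led them with -0.44 ± 0.06 (10.56 to 11.38 against 11.16 to 11.73, adjusted p = 1.25e-05), and Farsb had -0.22 ± 0.04, Mars1 -0.27 ± 0.05 and Gars1 -0.23 ± 0.05. A second probe set of Farsb had a change of 0.00. In the fit with both left-out arrays, 2 of the 19 synthetases and 4 of the 25 genes of the ATF4 and stress response fell, and 6 of the 12 genes of serine, one-carbon and asparagine synthesis.

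**Figure D3:**
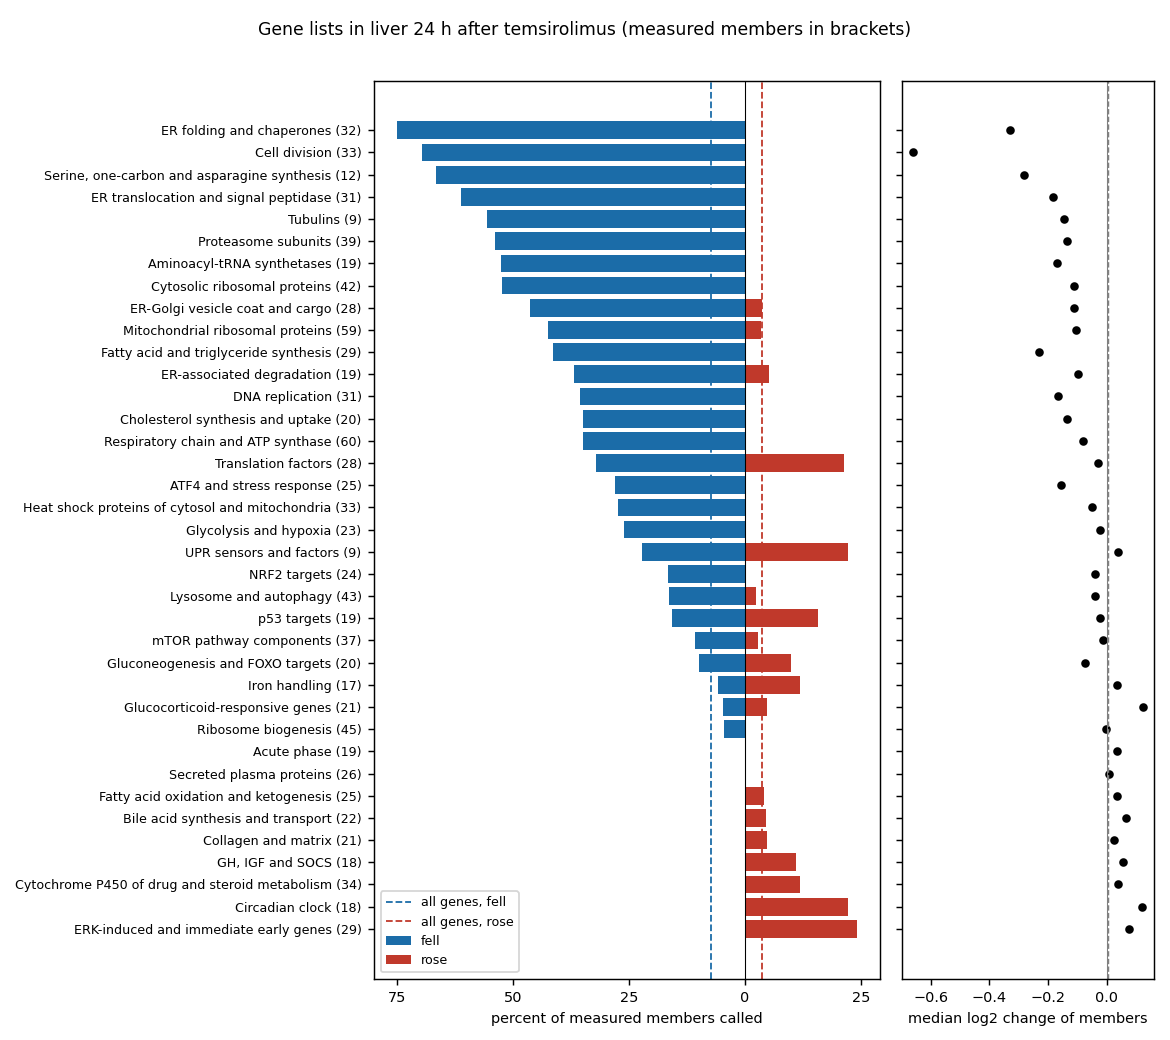
Left, the percent of measured members of 37 gene lists that fell (blue) or rose (red) in the liver 24 h after temsirolimus, with dashed lines at 7.36% and 3.68%, the shares of all genes tested. Right, the median log2 change of each list; 24 of 32 ER folding genes fell, and secreted plasma proteins and acute phase genes had 0 calls.

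Lipid synthesis fell in part. Of 29 measured genes of fatty acid and triglyceride synthesis, 12 fell and 0 rose (median -0.23). Pnpla3, a lipid droplet protein and known target of SREBP and ChREBP, had the largest change of all genes called, -2.24 ± 0.33 (adjusted p = 3.78e-05), from 9.11 to 12.67 (median 10.71) in controls to 6.16 to 10.75 (median 8.64) in treated rats. Both of its other probe sets were lower too (-2.15 and -1.53). Me1, which makes NADPH for the pathway, changed by -0.91 ± 0.14 (9.43 to 10.90 against 10.43 to 11.81), and Pgd, of the pentose phosphate path, by -0.44 ± 0.07. Fads2, a desaturase, changed by -0.56 ± 0.09, Acsl5, which activates fatty acids, by -0.46 ± 0.06, and Acly, which makes cytosolic acetyl-CoA, by -0.42 ± 0.09. The core synthase Fasn (-0.28 ± 0.15), Scd (-0.02 ± 0.05), Acaca (-0.04 ± 0.07), and the factors Srebf1 (-0.21 ± 0.11) and Mlxipl (0.04 ± 0.09) were not called. The 95% interval of the Scd change ran from -0.12 to 0.09.

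Cholesterol synthesis and uptake had 7 falls and 0 rises among 20 measured genes (median -0.13), with Acat2 at -0.50, Pmvk at -0.39 ± 0.07 and Fdps at -0.23 ± 0.05, the last pair of the mevalonate path. Of 22 genes of bile acid synthesis and transport, Abcb4, the phospholipid exporter, rose by 0.27 (4.55% of the list, against 3.68% of all genes) and 0 fell. Cyp7a1, the rate-limiting enzyme of bile acid synthesis, had 8.75 to 12.51 in treated and 10.78 to 12.54 in control rats and was not called (-0.74 ± 0.28, adjusted p = 0.094). Fatty acid oxidation and ketogenesis had 1 call of 25 (4%, again near the share of all genes), the rise of Ehhadh by 0.41 ± 0.09. Among 20 genes of gluconeogenesis and FOXO targets, 2 rose (10%, against 3.68% of all genes) and 2 fell (10%, near the 7.36% of all genes). The rises were Txnip by 0.36 ± 0.06 and Foxo3 by 0.32 ± 0.06. The falls were Tat by -0.64 ± 0.13 and Sesn3 by -0.19 ± 0.06. Pck1 had 0.15 ± 0.11 and Igfbp1 -0.37 ± 0.26, neither called. Glycolysis had 6 falls of 23 and a median of -0.02, with Pfkfb1 at -0.38 and Ldha at -0.14 ± 0.03. Inclusion of both left-out arrays gave 2 falls in cholesterol synthesis and uptake, 0 in glycolysis and 8 in fatty acid and triglyceride synthesis.

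Genes of cell division had the lowest median of any list. Of 33 measured members, 23 fell and 0 rose, all 33 changes were below 0, and the median was -0.66. The mean log2 signal over the list ran from 6.45 to 8.17 (median 7.05) in treated rats and from 7.01 to 9.10 (median 7.81) in controls, so the ranges overlapped between 7.01 and 8.17. Cdk1, the mitotic kinase, had 5.90 to 9.20 (median 7.39) and 7.28 to 10.42 (median 8.78), a change of -1.18 ± 0.27 (adjusted p = 0.00435). Ect2, which starts cytokinesis, changed by -1.29 ± 0.27 (5.42 to 8.28 against 6.57 to 9.58), Ccna2, a cyclin of S phase and mitosis, by -1.13 ± 0.29, and Mki67, which encodes the proliferation marker Ki-67, by -1.03 ± 0.26. DNA replication had 11 falls and 0 rises among 31 (median -0.17), with Fen1 at -0.44 ± 0.08, Pcna at -0.28 ± 0.07 and Prim1 at -0.66 ± 0.18. Of 9 tubulins 5 fell, Tubb6 by -0.52 ± 0.11, Tubb5 by -0.51 ± 0.11 and Tubb4b by -0.34 ± 0.06. Including both left-out arrays, 22 cell division genes, 7 DNA replication genes and 3 tubulins fell. Among cell types that could carry a dividing population, 9 erythroid markers had a mean of 7.58 to 7.97 in treated and 7.50 to 7.91 in control rats and 11 macrophage markers one of 10.65 to 11.21 and 10.54 to 11.15, with 0 called in either list. Which cells the division transcripts came from was not tested.

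Of 28 measured translation factors, 6 rose and 9 fell (median -0.03), and with both left-out arrays included 3 rose and 0 fell. Eif4b, a cofactor of the initiation helicase, had 10.54 to 10.83 (median 10.74) in treated and 10.16 to 10.40 (median 10.29) in control rats, a change of 0.43 ± 0.03 (adjusted p = 1.39e-09) without overlap. Eif4a2, a form of that helicase, rose by 0.34 ± 0.04, with 14 of 15 treated rats above all controls, Eef2, the translocation factor, by 0.22 ± 0.03, and Eif3f by 0.23 ± 0.04. Among the falls were Eef1g by -0.18 ± 0.04 and Eif4e, the cap-binding protein, by -0.11 ± 0.03, and the other probe sets of both lay on the other side of 0 (0.07 for Eef1g, 0.08 and 0.01 for Eif4e), without a call. Nop53, a nucleolar protein of ribosome assembly, had 9.88 to 10.28 (median 10.09) in treated and 9.32 to 9.71 (median 9.56) in control rats, and it rose by 0.57 ± 0.03 (adjusted p = 2.96e-13). Also chosen after their values were seen, Pabpc4, a poly(A)-binding protein (0.33 ± 0.05), Naca, of the nascent chain complex (0.20 ± 0.03), and Gas5, the host of small nucleolar RNAs (0.45 ± 0.10), rose. As background, transcripts of Eif4b, Eef2, Naca, Gas5 and the ribosomal proteins start with a pyrimidine tract through which mTOR governs their translation.

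Among cytosolic ribosomal proteins, calls were falls. Of 42 with a probe set that names 1 gene (77 were listed), 22 fell and 0 rose, with a median of -0.11. Rps29 had 14.28 to 14.43 (median 14.33) in treated and 14.40 to 14.54 (median 14.47) in control rats, a change of -0.14 ± 0.02 (adjusted p = 0.00018). Rpl3 changed by -0.28 ± 0.05, Rps24 by -0.22 ± 0.04, Rps9 by -0.20 ± 0.04 and Rpl11 by -0.17 ± 0.03. These transcripts lie near the top of the signal range, and the 99th percentile of all signals was 13.31 to 13.37 in treated rats and 13.36 to 13.40 in controls. The part of that difference in the fall of ribosomal proteins was not tested. With both left-out arrays included 0 of the 42 fell, with renewed quantile normalization 19 fell, and many ribosomal protein genes have processed pseudogenes that share probes. Of 45 measured genes of ribosome biogenesis, 2 fell (4.44%, against 7.36% of all genes), Nhp2 by -0.35 and Fbl by -0.18, and the median was 0.00.

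Mitochondrial ribosomal proteins had 25 falls and 2 rises among 59 (median -0.11). Mrpl49 changed by -0.54 ± 0.05 (8.55 to 9.14 against 9.06 to 9.54, adjusted p = 5.19e-08) and Mrps27 by -0.45 ± 0.05 (8.55 to 8.99 against 8.99 to 9.48), whose ranges met at 8.99. The respiratory chain and ATP synthase had 21 falls and 0 rises among 60 with a median of -0.08, and Ndufa12, of the NADH dehydrogenase, led them with -0.22 ± 0.04. Of 39 proteasome subunits, 21 fell and 0 rose (median -0.14). Psmd14, the deubiquitinase of the lid, had 10.11 to 10.59 (median 10.31) against 10.60 to 10.98 (median 10.86), a change of -0.52 ± 0.05 (adjusted p = 7.87e-08) without overlap, while the next, Psmd9, had -0.29 ± 0.06. Heat shock proteins of cytosol and mitochondria had 9 falls of 33, with the mitochondrial chaperonin pair Hspe1 and Hspd1 at -0.25 ± 0.03 and -0.21 ± 0.03. With both left-out arrays included these 4 lists had 3, 0, 1 and 4 falls, where ER folding had 15 and cell division 22. With renewed quantile normalization the same 4 lists had 23, 11, 18 and 9 falls.

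The target itself was not called. Mtor had 8.40 to 8.99 in treated and 8.31 to 8.77 in control rats (0.07 ± 0.05, adjusted p = 0.38), and Fkbp1a had 11.73 to 12.04 and 11.63 to 12.00 (0.01 ± 0.04, adjusted p = 0.87). Of 37 measured components of the pathway, 4 fell (10.8%, against 7.36% of all genes) and 1 rose (2.7%, against 3.68%). Eif4ebp1, Flcn (-0.23 ± 0.06), Akt1s1 (-0.17 ± 0.05) and Eif4e fell and Akt1, the insulin-activated kinase upstream, rose by 0.20 ± 0.05. Lysosome and autophagy genes, which TFEB governs under mTOR, had 7 falls and 1 rise among 43 (median -0.04). The falls included subunits of the proton pump, Atp6v1d (-0.27 ± 0.04), Atp6v1a (-0.24 ± 0.04), Atp6ap1 (-0.18 ± 0.04) and Atp6v1b2 (-0.29 ± 0.07). Once both left-out arrays were included, 1 of the 37 pathway components and 0 of the 43 lysosome and autophagy genes fell. Of 17 genes of iron handling, 1 fell (5.88%, against 7.36% of all genes) and 2 rose (11.8%, against 3.68%). Tfrc, the transferrin receptor, changed by -0.69 ± 0.12 (10.61 to 11.72 against 11.20 to 12.35, adjusted p = 0.00028 from limma). Steap4 and Smad7 rose by 0.22 ± 0.07 and 0.20 ± 0.06. With both left-out arrays included, 1 iron handling gene fell and 0 rose.

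The largest rises belonged to genes that the kinase ERK induces. Of 29 measured ERK-induced and immediate early genes, 7 rose and 0 fell (median 0.08), and 7 rose with both left-out arrays included. In fits of fewer rats, 1 rose in those given either oral vehicle and 1 in those given either kinase inhibitor. Egr1, a zinc finger factor, had 6.95 to 11.03 (median 9.25) in treated and 6.34 to 9.03 (median 7.80) in control rats, a change of 1.31 ± 0.21 (adjusted p = 0.00011), 2.49 on the linear scale. Myc rose by 0.90 ± 0.18 (7.67 to 9.27 against 6.91 to 8.44), and Dusp6, a phosphatase that switches ERK off, by 0.87 ± 0.19 (10.43 to 12.31 against 9.63 to 11.67). Ier2, Ccnd1, Spry1 and Dusp5 rose by 0.49, 0.43, 0.29 and 0.26, while Fos (0.04 ± 0.06) and Spry4 (0.10 ± 0.05) were not called. With the 4 second agents pooled, the groups of Egr1, Myc and Dusp6 overlapped, with 8, 7 and 4 of 15 treated rats above all controls. Treated rats had Egr1 values of 6.95 to 8.31 beside sorafenib and 9.25 to 11.03 beside sunitinib. Other large rises were Stac3 (0.85 ± 0.27), an adaptor known from muscle, Plekhb1 (0.74 ± 0.11), Chmp4c (0.60 ± 0.11), of the membrane scission machinery, Esr1 (0.59 ± 0.15), the oestrogen receptor, and Tmem30b (0.56 ± 0.17), a flippase subunit. With each rat left out in turn, Stac3 lost its call in 17 of 30 fits and Tmem30b in 12. Pf4, a platelet chemokine, rose by 0.56 ± 0.12 (9.30 to 11.05 against 9.06 to 9.92), and the mean of the 5 megakaryocyte and platelet markers was 7.65 to 8.14 in treated and 7.50 to 7.80 in control rats, with 1 of the 5 called. The other large fall was Serpinb9b, a serpin, at -2.12 ± 0.59 (5.72 to 9.81 against 6.26 to 12.74, adjusted p = 0.017).

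Clock genes had 4 rises of 18 (22.2%, against 3.68% of all genes), Nfil3 (0.32 ± 0.07), Npas2 (0.30 ± 0.07), Nr1d2 (0.30 ± 0.10) and Hlf (0.23 ± 0.07), and with the oral vehicles alone 2 rose and 1 fell. With each rat left out in turn, Hlf lost its call in 19 of 30 fits and Nr1d2 in 17. Cytochromes P450 had 4 rises of 34 (11.8%), among them Cyp2j3 by 0.50 ± 0.07 (11.44 to 11.90 against 10.78 to 11.59) and the receptor Nr1i3 by 0.40 ± 0.13, whose call was lost in 15 of those fits. Targets of p53 had 3 rises (15.8%) and 3 falls (Ddb2, Xpc and Perp, 15.8%) among 19. Of these calls, the rise of Mdm2 was lost in 19 of the fits without 1 rat and the fall of Perp in 17. NRF2 targets had 4 falls of 24 (16.7%, against 7.36% of all genes), with Abcc4 at -0.56 ± 0.09. In the GH, IGF and SOCS list Igfals (0.35) and Stat5b (0.25) rose of 18 (11.1%), and of 21 collagen and matrix genes Fn1 rose by 0.13 (4.76%). Of the glucocorticoid-responsive genes 1 of 21 rose (4.76%), Cdkn1a by 0.32, and 1 fell (4.76%), Tat. The shares of the collagen and glucocorticoid lists lay near those of all genes, of which 3.68% rose and 7.36% fell. Of the remaining cell markers, Asgr1 rose by 0.15 and Tat and Hpd (-0.13) fell among 14 hepatocyte genes, Fcgr2b of 10 endothelial genes rose by 0.21, and Acta2 of 11 stellate cell genes had -0.19 and fell. In the fit with both left-out arrays, the clock list had 3 rises, cytochromes P450 1 rise, p53 targets 1 rise and 1 fall, and NRF2 targets 2 falls.

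Each second agent was then taken alone, from a fit of the 8 group means. Temsirolimus changed 151 genes beside sterile water (1.06% of those tested), 78 beside F68/PG/PEG400 (0.549%), 263 beside sunitinib (1.85%) and 371 beside sorafenib (2.61%). Falls were the larger part except beside sorafenib, with 226 rises and 145 falls. The test of a difference among the 4 changes called 0 genes in limma (0%), with 1838 at an unadjusted p under 0.05, and 0 with a trended and robust variance (1789). Without single rats it called up to 13, that number without rat 8M90, 5 without 7M77, 3 without 3M30 and 1 without 6M66, 7M83 or 8M89. So few calls do not show that the 4 changes were alike. The like test between array sets had fewer genes at an unadjusted p under 0.05 in limma (863). The median change of the ER folding list was -0.39 beside water, -0.35 beside F68/PG/PEG400, -0.47 beside sunitinib and -0.19 beside sorafenib. For cell division it was -0.69, -0.58, -0.74 and -0.47, and for serine, one-carbon and asparagine synthesis -0.30, -0.36, -0.36 and -0.30. Sdf2l1 had -1.18, -1.22, -1.34 and -0.82 in the same order, and Nop53 had 0.54, 0.65, 0.54 and 0.57. Chmp4c had 0.73, 0.69 and 0.93 beside the other agents and -0.02 beside sunitinib, and Tmem30b had -0.49 there and Esr1 -0.04. In the rats given either kinase inhibitor 104 genes were called, with 11 of 32 falls in ER folding and 0 of 33 in cell division, and in those given either oral vehicle 830, with 22 and 4. These fits hold fewer rats, and 1 left-out array belonged to each.

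Every group was spread over both array sets, with 15 rats in each. The rats of each group were also dosed on consecutive days, and the dosing day of each rat is not given in the sources used here, so array set and day cannot be told apart. Within set 1, 205 genes were called (1.44%), and within set 2, 528 (3.71%). Of these, 104 were called in both with the same direction, 50.7% of the calls of set 1 and 19.7% of those of set 2. Of the calls of set 1, 98.5% had the same sign in set 2, and of the calls of set 2, 95.6% in set 1, where 62.6% of all genes did. No rat was in both sets. The change differed between sets for 0 genes in limma (0%), with 863 at an unadjusted p under 0.05, and for 0 with a trended and robust variance (844). Several of the largest falls were deeper in set 2, as for Nupr1 (-1.46 and -2.46), Phgdh (-1.44 and -2.38), Asns (-1.10 and -2.07) and Pnpla3 (-1.84 and -2.69), which the test did not call, and ER folding had medians of -0.32 and -0.35.

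**Figure D4:**
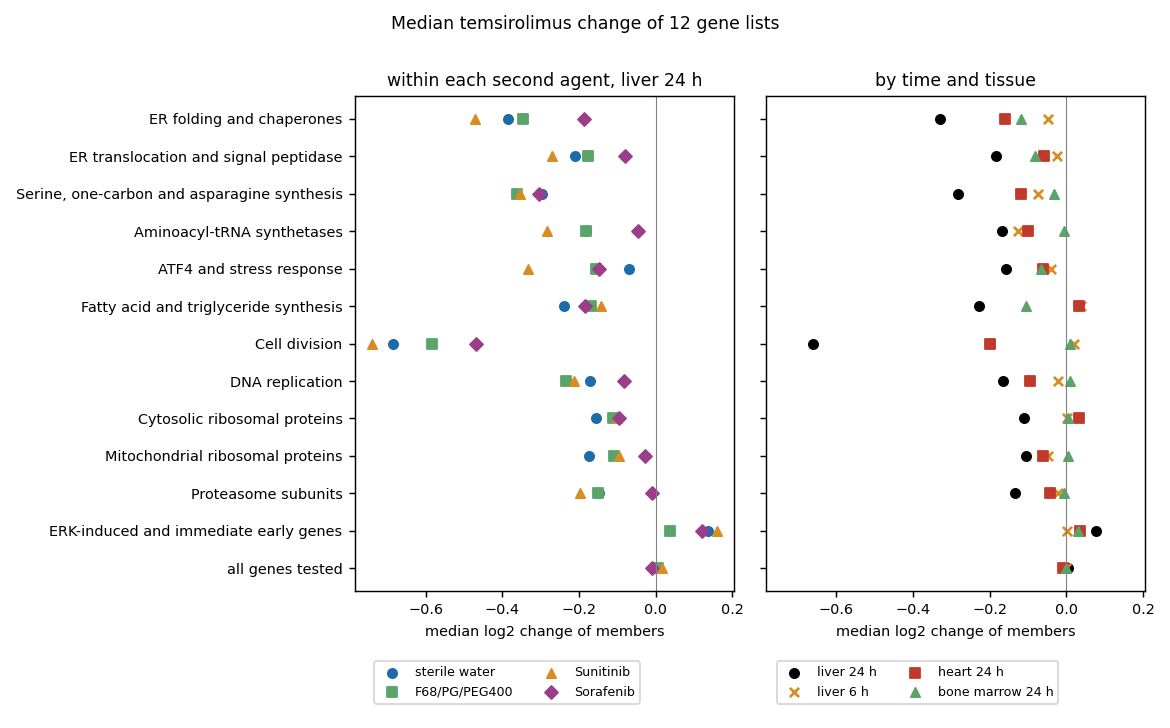
Median log2 change (horizontal axes) of the members of 12 gene lists and of all genes tested. Left, within each second agent in the liver at 24 h; right, in the liver at 24 h and 6 h and in heart and bone marrow at 24 h. Cell division has -0.66 in the liver at 24 h, 0.02 at 6 h, -0.20 in heart and 0.01 in bone marrow.

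At 6 h, limma called 0 genes for temsirolimus in 32 livers (0%), with 1176 at an unadjusted p under 0.05. The change at 24 h differed from that at 6 h for 287 genes (2.02%), of which 229 were lower at 24 h (1.61%) and 58 higher. These 229 included 16 of the 32 ER folding genes, 12 of 31 of ER translocation, 14 of 42 cytosolic ribosomal proteins, 9 of 29 of fatty acid and triglyceride synthesis and 4 of 12 of serine, one-carbon and asparagine synthesis. Sdf2l1 changed by 0.00 ± 0.08 at 6 h, and the difference was -1.13 ± 0.13 (adjusted p = 2.13e-08). Nme1 had 0.01 ± 0.07 at 6 h and a difference of -0.87 ± 0.09 (adjusted p = 1.51e-09), and Pdia6, a disulfide isomerase, 0.04 ± 0.04 and -0.46 ± 0.06 (adjusted p = 2.35e-07). In the other direction, Nop53 had 0.04 ± 0.04 and a difference of 0.54 ± 0.05, and Eif4b 0.04 ± 0.03 and 0.39 ± 0.05. Psph had -0.25 ± 0.09 and Nars1 -0.19 ± 0.06 at 6 h, neither called there, and the difference was called for Psph (-0.72 ± 0.12) and not for Nars1 (adjusted p = 0.118). Of the 33 cell division genes 1 was called, and their median was 0.02 at 6 h. With both left-out arrays included, 52 genes were called, all of them among the 287.

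The same rats gave hearts and bone marrow, and the change in the liver was compared with that in another tissue as a difference within the rat. Both comparisons use the 30 livers described so far and are not independent of them. Within the heart alone, temsirolimus changed 356 of 14217 genes, of which 49 rose and 307 fell. Within bone marrow alone it changed 486, of which 48 rose and 438 fell, so falls were the larger part there too. Against the heart, 477 genes were called (3.36%), of which 270 were lower in the liver (1.9%) and 207 higher. Erp29 had -0.07 ± 0.04 in the heart and a difference of -0.58 ± 0.05 (adjusted p = 1.28e-07), Psph -0.17 ± 0.04 and -0.80 ± 0.08 (adjusted p = 3.56e-07), and Nme1 -0.23 ± 0.04 and -0.63 ± 0.05 (adjusted p = 1.8e-09). Tmem97 had a difference of -0.64 ± 0.07 and Nop53, which was also higher in treated hearts (0.21 ± 0.03), one of 0.36 ± 0.04. The ER folding list had a median of -0.16 in the heart, with 10 of 32 members called lower in the liver. Hsp90b1 and Pdia6 fell in the heart too (-0.41 ± 0.06 and -0.34 ± 0.05), and their difference between the tissues was not called (adjusted p = 0.446 and 0.476). Of the cytosolic ribosomal proteins 17 were called lower in the liver. The hearts of 9 of the 30 rats, 5 treated and 4 controls, held hepatocyte markers at a mean log2 signal of 7.38 to 11.25. The other 21 had 5.90 to 6.34. The highest mean was 11.25 among treated hearts and 8.10 among control hearts. Hepatocyte markers had a median change of 0.725 in the heart, and secreted plasma proteins one of 0.734. The part of this hepatocyte signal in the heart changes and differences given here was not tested. Without these 9 rats 227 genes were called, 192 of them among the 477, and 5 ER folding genes were lower in the liver. The highest of the 9 was rat 4M42, and without rats 4M42 and 1M5 388 genes were called, 339 of them among the 477.

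Against bone marrow, 1185 genes were called (8.34%), 552 of them lower in the liver (3.88%) and 633 higher. Sdf2l1 changed by -0.23 ± 0.04 in bone marrow, with a difference of -0.90 ± 0.09 (adjusted p = 8.6e-08), Erp29 by -0.09 ± 0.04, with one of -0.55 ± 0.05, and Psph by -0.08 ± 0.04, with one of -0.89 ± 0.09. Nop53 had 0.04 ± 0.05 and a difference of 0.53 ± 0.05, and Nme1 -0.03 ± 0.04 and -0.83 ± 0.06. Of the cell division genes 21 of 33 were lower in the liver, with a median of 0.01 in bone marrow, where dividing cells abound, and of the ER folding genes 16 of 32, with a median of -0.12. Among 12 genes of serine, one-carbon and asparagine synthesis, 6 were lower in the liver against the heart and 7 against bone marrow. In the marrow, the 5 megakaryocyte and platelet markers had a mean of 11.45 to 12.06 in treated and 11.71 to 12.46 in control rats, and the 11 stellate cell and fibroblast markers 7.58 to 8.65 and 8.08 to 8.67, and their part in the 633 genes that were higher in the liver was not tested.

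**Figure D5:**
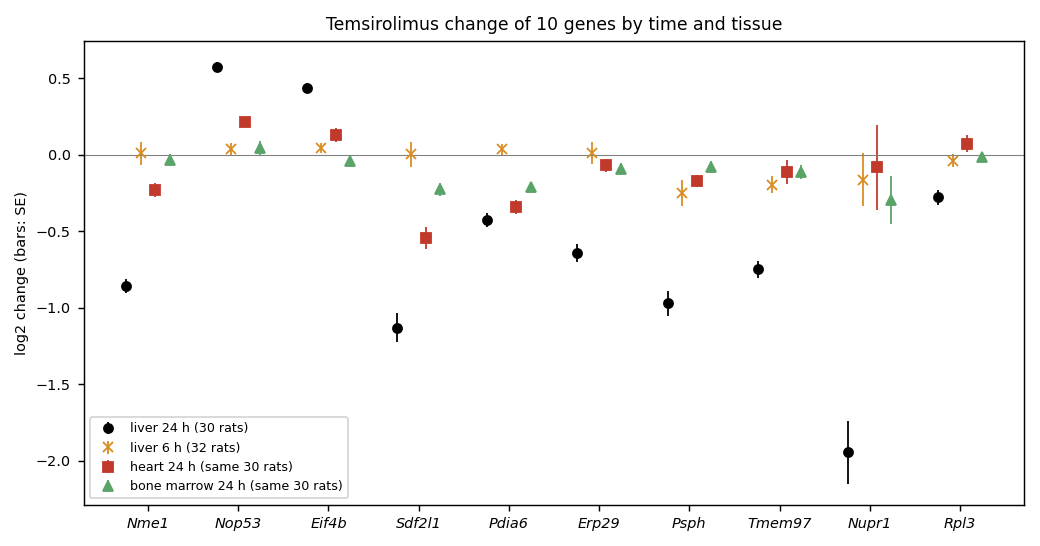
Log2 change (vertical axis, temsirolimus minus vehicle, bars standard errors) of 10 genes in the liver at 24 h and at 6 h and in heart and bone marrow at 24 h. Sdf2l1 had -1.13 in the liver at 24 h, 0.00 at 6 h, -0.54 in the heart and -0.23 in bone marrow, and Nop53 had 0.57, 0.04, 0.21 and 0.04.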

How the data were processed

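Gene expression was measured with Affymetrix rat genome arrays. The authors made the deposited values by RMA, which corrects the background, normalizes by quantiles and sums up probes, and the deposited unit is the log2 signal of each probe set. The version of RMA is not given in the sources used here. RMA over many arrays pulls their quantiles together, so a shift shared by most genes cannot be seen. Of 31099 probe sets, 20832 carried 1 gene symbol in the platform annotation, and each gene was read from its brightest probe set on average across the 30 arrays, which left 14217 genes. Groups came from the sample titles. The array set follows the array plates that the study's assay table gives for each rat.

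R 4.3.3 with limma 3.58.1 fitted the first agent with terms for the second agent and the array set (lmFit and eBayes, with Benjamini-Hochberg adjustment over all genes). The effect of each second agent came from a fit of the 8 group means. Comparison with 6 h used the interaction with time, and comparison with heart and bone marrow took, in each rat, the liver value minus that of the other tissue. Levels of lists are means over their measured genes. The number of arrays limits the precision. The fits were tested on simulated data.

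The rats, comparisons and 48 gene lists were chosen with earlier results of these data known, so counts over a list are descriptions. Named genes were the 10 largest rises and the 10 largest falls among genes called, up to 5 members with the smallest p of each list with at least 3 called, Mtor, Fkbp1a and called members of the mTOR list, and up to 5 genes with the smallest p in each comparison between times or tissues. Others are named as list members, or as chosen after their values were seen. Alternatives covered the left-out arrays, array weights, the filter on low signals, normalization, probe sets, variance, the array set term, and each rat left out in turn. Promoters are from RefSeq (GRCr8).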

Additional observations from a re-analysis of the deposited data

Results flagged for a closer look

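In groups of 4 rats, the 20 genes with the largest changes were searched for a rat far from the other 3, and 8 of 120 sets of 4 held one, where chance gives about 1 in 20. Plekhb1 was 8.98 in rat 8M96 (TEM_vehicle with sorafenib), below 9.86 to 9.96 in the others. Chmp4c was 8.95 in rat 3M36 (temsirolimus with water), above 8.51 to 8.57, and 7.48 in rat 1M5 (TEM_vehicle with water), below 8.05 to 8.07. Esr1 was 5.95 in rat 5M54 and Pf4 9.30 in rat 5M59 (both temsirolimus with sunitinib), below 6.82 to 6.90 and 10.05 to 10.19. Pf4 was 10.11 in rat 3M30 (temsirolimus with water), above 9.70 to 9.77. Phgdh was 7.83 in rat 1M6 (TEM_vehicle with water), below 8.66 to 8.78, and Asns 7.97 in rat 6M65 (temsirolimus with sorafenib), above 6.73 to 6.90.

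The temsirolimus change differed between 24 h and 6 h for 287 genes, between liver and heart for 477 and between liver and bone marrow for 1185. The 5 smallest p-values of limma between the times belonged to Nop53 (difference 0.54), Nme1 (-0.87), Eif4b (0.39), Sdf2l1 (-1.13) and Pdia6 (-0.46). Between liver and heart they belonged to Nme1 (-0.63), Erp29 (-0.58), Psph (-0.80), Tmem97 (-0.64) and Nop53 (0.36). Between liver and bone marrow they belonged to Nme1 (-0.83), Erp29 (-0.55), Sdf2l1 (-0.90), Psph (-0.89) and Nop53 (0.53).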

How the results depend on the processing

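The number of genes called for temsirolimus stayed within 1.5 times 1570 under the filter on low signals, renewed quantile normalization, a trended and robust variance, no array set term, other uses of probe sets, averaged group effects and inclusion of rat 4M48 (1526 to 1799 genes). It was 378 with rat 7M78 included, 445 with both left-out arrays and 2375 with both and array weights. With part of the rats it was 830 (oral vehicles), 104 (kinase inhibitors), 151, 78, 263 and 371 (water, F68/PG/PEG400, sunitinib and sorafenib), and 205 and 528 (array sets 1 and 2), which have fewer rats. Both left-out arrays gave 52 genes between the times, 179 between liver and heart and 644 between liver and bone marrow, and 227 were called between liver and heart without the 9 rats with hepatocyte markers in the heart, a setting chosen after seeing the data. The cause of these shifts was not tested. With each rat left out in turn the counts were 1339 to 1806 for temsirolimus, 219 to 351 between times, 368 to 554 against the heart, 955 to 1370 against bone marrow, 0 to 13 among second agents and 0 to 0 between array sets. Of 144 genes named and called, 129 were called in all 30 fits that left out 1 rat. The call was lost in 21 of the 30 fits for Pgk1, in 19 for Hlf and Mdm2 and in 17 for Stac3, Nr1d2 and Perp. It was lost in 16 for Smad7, 15 for Nr1i3, 13 for Eif4e, 12 for Tmem30b and 11 for Gclc. Steap4 lost it in 6, Eno1 in 3, and Eif2ak3 and Tuba4a in 1 each. With rat 7M78 included, 80 of 146 results for single named genes were classed as weaker and 66 as the same. With both left-out arrays included, 71 of 161 such results were weaker. Signs turned for Fkbp1a (-0.008 with rat 4M48, -0.015 with kinase inhibitors and -0.051 beside sunitinib), beside F68/PG/PEG400 for Perp (0.113) and Mdm2 (-0.057), and beside sunitinib for Chmp4c (-0.019), Esr1 (-0.044), Tmem30b (-0.486), Nr1d2 (-0.015), Steap4 (-0.136) and Mtor (-0.011). Of 49 named genes with several probe sets, 45 had all on 1 side of 0, and no opposite one was called. No paired analysis was possible between treated and control livers because these are different rats and the labels give no replicate number shared by groups; the liver was set against heart and bone marrow within the rat.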
